A study of Mus musculus with 6 samples.

Results

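The 32 genes described here encode glucose transporters, the enzymes of glycolysis, lactate dehydrogenase, monocarboxylate transporters, pyruvate dehydrogenase kinases and the enzymes of the pentose phosphate pathway. They were chosen by function and taken by symbol from the 55487 Ensembl mouse genes of the deposited count table. Of the 32, 25 serve glucose uptake, glycolysis and the handling of pyruvate and lactate, and 7 form the pentose phosphate pathway. The samples were 6 bulk RNA libraries of mouse oocytes, 3 labelled control and 3 labelled metformin, the biguanide that lowers blood glucose in diabetes. Per the labels, mice of all groups were given 10 IU of PMSG, a gonadotropin that stimulates follicle growth, and fully grown oocytes at the germinal vesicle (GV) stage were taken 46 to 48 h later. The oocytes were then freed of cumulus cells and matured in M16 medium for 16 h to the M2 stage (the second meiotic arrest), without metformin in the control group and with it in the metformin group. The protocol lists metformin at 10, 20 and 50 μM without saying which was sequenced; the title of the series names aged mice, and the sample labels give neither strain nor age nor the number of oocytes per library.

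Glycolysis breaks glucose down to pyruvate with a small gain of ATP, lactate dehydrogenase interconverts pyruvate and lactate, and the pentose phosphate pathway turns glucose-6-phosphate into NADPH and ribose phosphate. The growing and maturing mouse oocyte is known to use glucose poorly and to live mainly on pyruvate, much of which cumulus cells make by glycolysis and hand over. M16 medium supplies pyruvate and lactate as well as glucose. Metformin is best known as an inhibitor of complex I of the mitochondrial respiratory chain, and cells with impaired respiration commonly draw more on glycolysis. The comparison of the groups asks whether the RNA levels of these enzymes differed between oocytes matured with and without the drug.

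The libraries held 8622281 to 10588292 counted reads, and 3 reads, the floor used here for a detectable level, corresponded to 0.285 to 0.339 CPM in a library (CPM being reads scaled to a common library size). All 12 oocyte markers checked passed the filter on low counts, and together they reached 33340 to 45790 CPM. Of 18 markers of cumulus and granulosa cells, 4 had 0 reads throughout (Foxl2, Amh, Amhr2 and Ptx3), and the sum of the list lay at 59.4 to 62.0 CPM in control and 57.2 to 68.4 CPM with metformin, with 92.2% to 96.4% of it from Cyp19a1 and Nr5a2. All 10 markers of stroma and endothelium had reads, and 3 passed the filter. Their sum lay at 35.3 to 41.5 CPM in control and 31.5 to 43.5 CPM with metformin. The 11 blood markers all had reads too, and 1 passed the filter. They summed to 1.92 to 35.3 CPM in control and 1.77 to 2.47 CPM with metformin. Of 12793 genes tested with edgeR's quasi-likelihood test, 5 passed an adjusted p of 0.05: 0.0391%. The labels do not say whether libraries came from separate animals or cultures, so a p-value here reflects how far these samples spread, and that spread may be technical. In bulk libraries with no added standard, less RNA per oocyte and fewer oocytes cannot be told apart.

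Most reads on the 32 genes lay on a pair of transcripts. Ldhb, the heart-type subunit of lactate dehydrogenase, and Bpgm, bisphosphoglycerate mutase, together took 95.8% to 97.1% of all reads on the 32 genes. The 32 genes held 1.11% to 1.41% of the reads of a library, and the other 30 genes together 0.0411% to 0.0472%. These shares leave out reads counted on annotated copies of the genes. Transaldolase (Taldo1), pyruvate dehydrogenase kinase Pdk3 and glucose-6-phosphate dehydrogenase (G6pdx) formed a middle tier. Most enzymes of the glycolytic chain itself, from hexokinase to enolase, lay at a few FPKM or less, and Ldha was close to the floor. Gapdh had few reads of its own, but most reads of its sequence were counted on annotated copies, so its level is not known. None of them was called between metformin and control libraries: of the 32, 24 passed the filter on low counts and 0 passed the adjusted p of 0.05 in edgeR's quasi-likelihood test, which 0.0391% of all tested genes did.

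Levels between genes are compared per length, as the authors' deposited FPKM (fragments per kilobase of gene length, scaled to the depth of the library). By mean FPKM over the 6 libraries, 2 genes exceeded 1000, 0 lay between 100 and 1000, 3 between 10 and 100, 7 between 1 and 10, 12 between 0.1 and 1, and 8 under 0.1. These tiers use reads on the gene itself. Annotated copies held 99.5% of the summed reads for Gapdh, 78.4% for Eno1 and 47.1% for Pgk1. The tiers of such genes are therefore uncertain. Only 51 genes of the whole table exceeded a mean of 1000. The gene length behind the deposited FPKM equalled, within 0.1%, the sum of all distinct annotated exons for 29 of the 31 members with reads. This counts alternative exons that overlap more than once and made the length 1.00 to 2.09 times that of the merged exons, with a median of 1.42. With merged exons in its place, 2 genes exceeded 1000, 3 lay between 10 and 100, 9 between 1 and 10 and 18 under 1, the same counts as before in the upper tiers. The exceptions to the sum of distinct exons were Ldhb and Tpi1. The length behind the FPKM of Ldhb was 2412 bases, against 1968 of distinct and 1570 of merged exons. For Tpi1 it was 5543 bases, against 4747 of distinct exons.

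**Figure D1:**
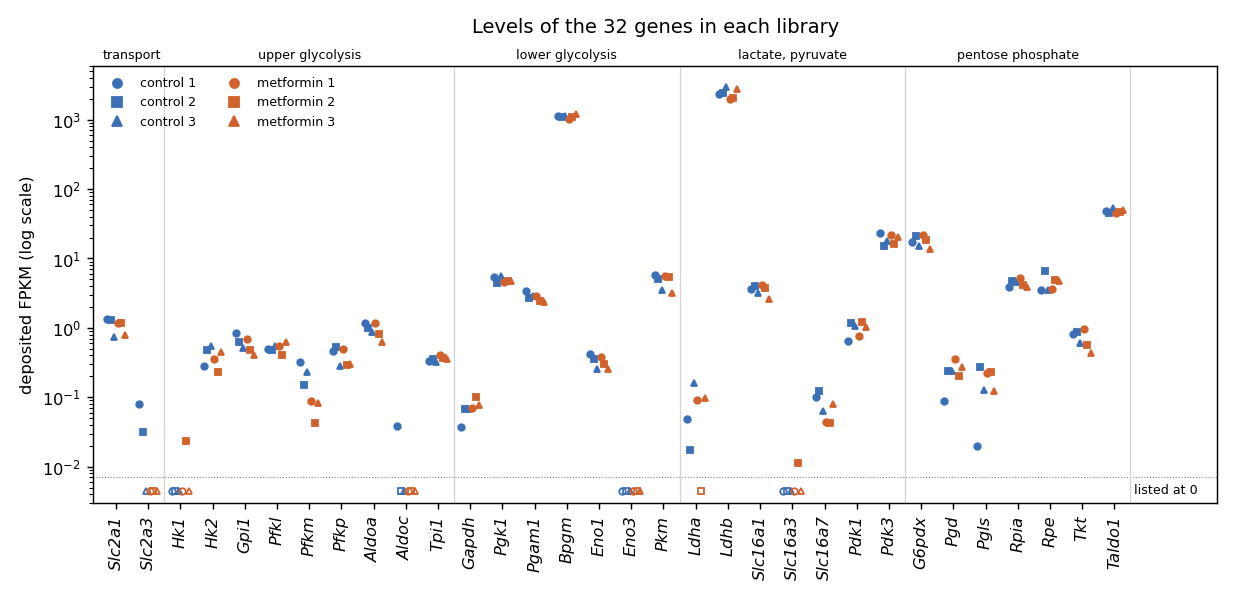
Deposited FPKM (log scale) of the 32 genes in each of the 6 libraries, ordered by role; colours mark control and metformin, marker shapes the replicate number, and open symbols under the dotted line values listed at 0. Bpgm and Ldhb stand above 1000 in every library, Taldo1 between 44.7 and 53.4, and most glycolytic enzymes at or under a few FPKM.

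Lactate dehydrogenase converts pyruvate and lactate into each other, and its subunits Ldhb and Ldha assemble into tetramers of differing kinetics. Ldhb (chr6:142490249-142507957, minus strand, GRCm38) had 52153, 51129 and 71470 reads in control libraries 1 to 3 and 46874, 50960 and 69954 in metformin libraries 1 to 3. The library with the number 3 was the highest in both groups, and the groups overlapped. In CPM the means were 6216 ± 1022 in control and 5541 ± 1428 in metformin libraries (SD, n = 3 each), a log2 fold change of -0.17 with a standard error (SE) of 0.196 and an adjusted p of 0.9996 in edgeR's quasi-likelihood test. Its mean deposited FPKM of 2415 ranked 25th among the 26025 genes with at least 1 read. Ldha, the muscle-type subunit (chr7:46841475-46855627, plus strand), had 3, 1 and 11 reads in control and 6, 0 and 7 in metformin libraries, under or not far above the floor in each. Over all libraries 342540 reads on Ldhb stood against 28 on Ldha. Per length that is a ratio of 34030, with an exact 95% counting interval of 23550 to 51220, or 25790 with merged exons. Such intervals, and the floor, cover counting error only, since reads of amplified cDNA are not independent molecules.

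The Ldhb sequence has a near-identical annotated copy, and that copy also drew reads. Gm5514 is annotated as a processed pseudogene at chr19:21937380-21938381 (plus strand, GRCm38). It aligned with the Ldhb transcript over 1002 bases at 98.0% identity with 20 mismatches and 0 gaps, and its longest stretch identical to Ldhb was 148 bases. The stretch of 120 bases with the most differences is printed here, since it shows how few bases separate the reads of both loci; capitals mark the 5 differing bases.
Ldhb, bases 373 to 492 of its transcript: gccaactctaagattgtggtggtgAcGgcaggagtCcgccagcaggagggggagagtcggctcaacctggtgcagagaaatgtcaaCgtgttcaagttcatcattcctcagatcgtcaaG
Gm5514, bases 262 to 381 of its transcript: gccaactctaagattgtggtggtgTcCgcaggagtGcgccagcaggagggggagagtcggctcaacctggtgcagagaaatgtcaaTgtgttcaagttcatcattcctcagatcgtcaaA
Gm5514 was given 32048, 21618 and 28642 reads in control and 28219, 32203 and 29383 in metformin libraries, and the groups overlapped. That is 33.4% of the reads on the pair, and 171769 reads per kilobase against 218178 on Ldhb. How reads that match several places were counted is not given in the sources used here, so the split between them is uncertain. The sum of both was 9140 ± 1088 CPM in control and 8493 ± 1537 CPM with metformin, a log2 fold change of -0.11 (SE 0.170; edgeR quasi-likelihood test, adjusted p = 0.9997). Gm5514 alone had a log2 fold change of 0.01 (SE 0.155).

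The promoter windows of the gene with the highest level and of its paralog near the floor are shown side by side with that of Bpgm, from RefSeq on GRCm38.p6, 250 bases before to 50 after the annotated start. Capitals mark ACGTG, a form of the core of the hypoxia response element, and CCAAT, the box bound by NF-Y, each on either strand. GCGTG, the other form of that core, was not searched for and is not marked.
Ldhb, chr6:142507908-142508207, minus strand: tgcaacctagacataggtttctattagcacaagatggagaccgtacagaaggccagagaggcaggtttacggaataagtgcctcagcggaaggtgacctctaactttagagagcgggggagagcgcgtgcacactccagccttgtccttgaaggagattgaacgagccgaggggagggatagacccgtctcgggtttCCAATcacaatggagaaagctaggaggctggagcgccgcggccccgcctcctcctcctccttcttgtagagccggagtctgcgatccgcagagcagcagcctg
Ldha, upstream start, chr7:46845554-46845853, plus strand: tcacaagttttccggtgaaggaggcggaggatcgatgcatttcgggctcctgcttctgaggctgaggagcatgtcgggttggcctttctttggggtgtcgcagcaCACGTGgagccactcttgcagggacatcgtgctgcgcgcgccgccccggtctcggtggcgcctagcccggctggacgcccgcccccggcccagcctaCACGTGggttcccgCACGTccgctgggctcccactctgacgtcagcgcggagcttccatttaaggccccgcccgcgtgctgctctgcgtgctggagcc
Bpgm, chr6:34476106-34476405, plus strand: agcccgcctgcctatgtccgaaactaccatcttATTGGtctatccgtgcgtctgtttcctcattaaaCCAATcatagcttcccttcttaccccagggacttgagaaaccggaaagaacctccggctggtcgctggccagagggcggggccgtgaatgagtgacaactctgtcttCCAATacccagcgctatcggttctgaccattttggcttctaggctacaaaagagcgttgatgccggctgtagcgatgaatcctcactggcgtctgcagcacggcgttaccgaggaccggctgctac
The Ldhb window held 0 matches to ACGTG and 1 to CCAAT. The Ldha window held 5 matches to ACGTG, of which 4 come from a pair of palindromic CACGTG runs that read the same on both strands, and 0 to CCAAT. A second Ldha window, at the downstream start (chr7:46846832-46847131), held 0 matches to either. Bpgm held 0 and 3 matches. Of all 32851 RefSeq windows of 300 bases, 19.6% held ACGTG and 0.183% held 5 or more, 37.4% held CCAAT and 3.37% held 3 or more. Windows were found for 30 of the 32 genes, 43 windows in all, of which 17 held ACGTG and 17 held CCAAT. The base composition differs: the median GC content was 60.7% in these 43 windows and 52.7% in all, with a median of 20 and 7 CpG, and ACGTG contains a CpG. These are matches of letters and say nothing of binding.

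Bpgm makes and degrades the bisphosphoglycerate that lowers the oxygen affinity of haemoglobin in red cells, and it also has a weak mutase activity in glycolysis. Bpgm (chr6:34476207-34505613, plus strand) had 61897, 56191 and 66810 reads in control and 58697, 65981 and 74638 in metformin libraries. The metformin libraries held both the lowest and the highest CPM and enclosed the controls. Its level was 6588 ± 283 CPM in control and 6568 ± 1030 CPM with metformin, a log2 fold change of -0.004 (SE 0.154). By mean CPM it ranked 12th and Ldhb 18th of all genes, whereas per length Bpgm ranked 46th. Per length Ldhb exceeded Bpgm 1.88 to 2.61 times across the 6 libraries. Haemoglobin genes had 281 reads in control library 1 and 0 to 2 in each other library, and Bpgm, at 6663 CPM of the unscaled library size in that library, lay within the 5920 to 7049 of all 6. A contribution of blood cells to the Bpgm reads was not tested.

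**Figure D2:**
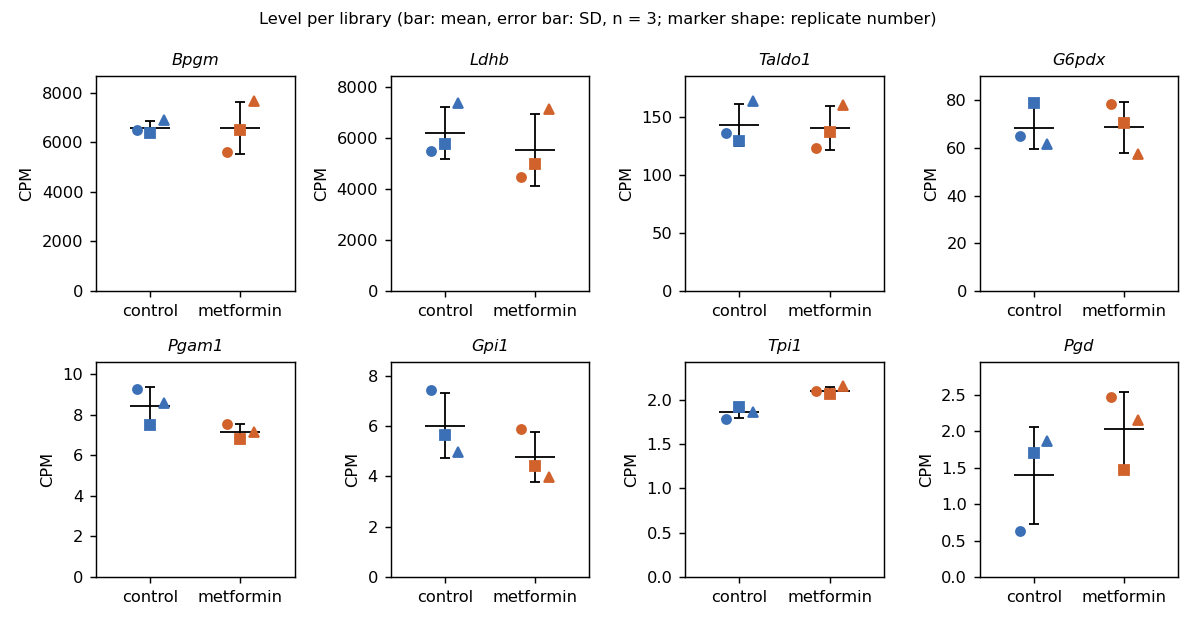
CPM of 8 of the genes in each library, with the horizontal bar at the group mean and error bars of 1 SD (n = 3 libraries); axes start at 0 and differ between panels. Control and metformin libraries overlap in every panel but that of Tpi1, whose 6 values all lie within 1.79 to 2.15 CPM.

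Glucose enters cells through facilitative transporters. Slc2a1 (GLUT1), the widespread basal transporter, had 69, 62 and 41 reads in control and 65, 65 and 46 in metformin libraries, with the number 3 library the lowest in both groups. Its CPM was 6.17 ± 1.68 in control and 5.76 ± 0.916 in metformin libraries (log2 fold change -0.10, SE 0.269). Slc2a3 (GLUT3), a transporter of high affinity, had 8, 3 and 0 reads in control libraries and 0 in each metformin library, which is at or under the floor in 5 of 6. It was too low for the main test. Without the filter on low counts its unadjusted p was 0.0114 and its adjusted p 0.997 in edgeR's quasi-likelihood test.

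Hexokinase traps glucose as glucose-6-phosphate. Hk2, the form that insulin and growth signals induce in muscle and fat, had 18, 28 and 38 reads in control and 24, 16 and 33 in metformin libraries, and Hk1, the widespread form, had 3 reads, all in metformin library 2. Per length Hk2 exceeded Hk1 94.5 times over all libraries, with an exact 95% counting interval of 31.7 to 463 that rests on those 3 reads. Hk2 stood at 3.00 ± 1.03 CPM in control and 2.41 ± 0.909 CPM with metformin (log2 fold change -0.32, SE 0.369). Gpi1, which turns glucose-6-phosphate into fructose-6-phosphate, had 71, 50 and 48 reads in control and 62, 45 and 39 in metformin libraries. Within each group the order of the libraries was the same, and the groups overlapped. Its 6.03 ± 1.29 CPM in control and 4.77 ± 1.00 CPM with metformin gave a log2 fold change of -0.34 (SE 0.263; edgeR quasi-likelihood test, unadjusted p = 0.228 and adjusted p = 0.9996).

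Phosphofructokinase commits the sugar to glycolysis, and its liver (Pfkl), muscle (Pfkm) and platelet (Pfkp) subunits form tetramers. Pfkl had 36, 32 and 43 reads in control and 42, 33 and 52 in metformin libraries, at 3.95 ± 0.436 and 4.19 ± 1.05 CPM (log2 fold change 0.08, SE 0.272). Pfkp had 68, 73 and 46 reads in control and 77, 48 and 50 in metformin libraries (log2 fold change -0.23, SE 0.278). Both overlapped between the groups. On the opposite strand, 5.58% of the Pfkp exons overlap Pitrm1, which had 1450 reads. Pfkm, singled out after its values were seen, had 14, 6 and 11 reads in control and 4, 2 and 4 in metformin libraries, so that its groups did not overlap. It was under the filter on low counts. Of the 12793 genes above that filter, 5.63% had groups that did not overlap. No such share was taken for genes under the filter. A fit without the filter gave a log2 fold change of -1.71 (SE 0.636; edgeR quasi-likelihood test, unadjusted p = 0.0105, adjusted p = 0.997), which does not pass. As a share of the summed phosphofructokinase FPKM, Pfkm made up 25.4%, 13.0% and 22.1% in control and 7.80%, 5.63% and 8.12% in metformin libraries. The difference in the mean share was -13.0 percentage points per length and -6.28 as a share of raw counts. Of the Pfkm exons, 10.2% overlap an RNA gene on the same strand, Gm26513, which had 22 reads, and 0.539% overlap Senp1 on the opposite strand, with 12729 reads.

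**Figure D3:**
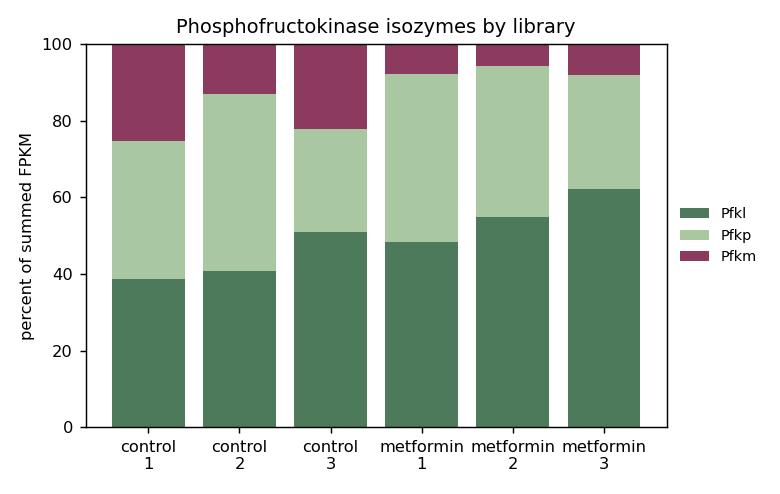
Share of Pfkl, Pfkp and Pfkm in the summed phosphofructokinase FPKM of each library, stacked to 100%. The Pfkm share is 13.0% to 25.4% in the control libraries and 5.63% to 8.12% in the metformin libraries, from 2 to 14 Pfkm reads per library.

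Aldolase cleaves fructose bisphosphate and triose phosphate isomerase interconverts the products. Aldoa, the muscle-type aldolase, had 63, 50 and 51 reads in control and 68, 49 and 39 in metformin libraries, at 5.85 ± 0.698 and 5.09 ± 1.26 CPM (log2 fold change -0.20, SE 0.256). Aldoc, the brain-type form, had 2 reads, both in control library 1. Tpi1 had 17, 17 and 18 reads in control and 22, 21 and 21 in metformin libraries, and it was the only tested gene of the 24 whose groups did not overlap in CPM. That is 4.17% of them, against 720 of all 12793 tested genes or 5.63%. At 1.86 ± 0.0675 CPM in control and 2.10 ± 0.0438 CPM with metformin its log2 fold change was 0.18 (SE 0.301; edgeR quasi-likelihood test, unadjusted p = 0.566 and adjusted p = 0.9996). With the 7 reads of its near-identical copies added, the groups of Tpi1 overlapped.

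Gapdh, which oxidises glyceraldehyde phosphate and is widely used as a reference gene, had only 3, 5 and 6 reads in control and 6, 9 and 7 in metformin libraries. The annotation holds 192 copies with at least 90% identity over at least 300 bases and over 50% or more of the copy's transcript, 186 of them pseudogenes, and 135 of the 192 had reads. Together the copies took 7445 reads against 36 on Gapdh itself, or 99.5% of the sum. The copy with the most reads, the processed pseudogene Gm13394, matched Gapdh at 99.9% of 1000 bases, with an identical run of 654 bases, and had 2152 reads. Not all copies were this close: Gm5177, with 1032 reads, matched at 90.7% of 1008 bases. Gapdh and its copies together stood at 127 ± 4.94 CPM in control and 129 ± 14.9 CPM with metformin (log2 fold change 0.02, SE 0.138, adjusted p = 0.9997 in edgeR's quasi-likelihood test). How much of this sum came from Gapdh itself cannot be told from these counts.

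**Figure D4:**
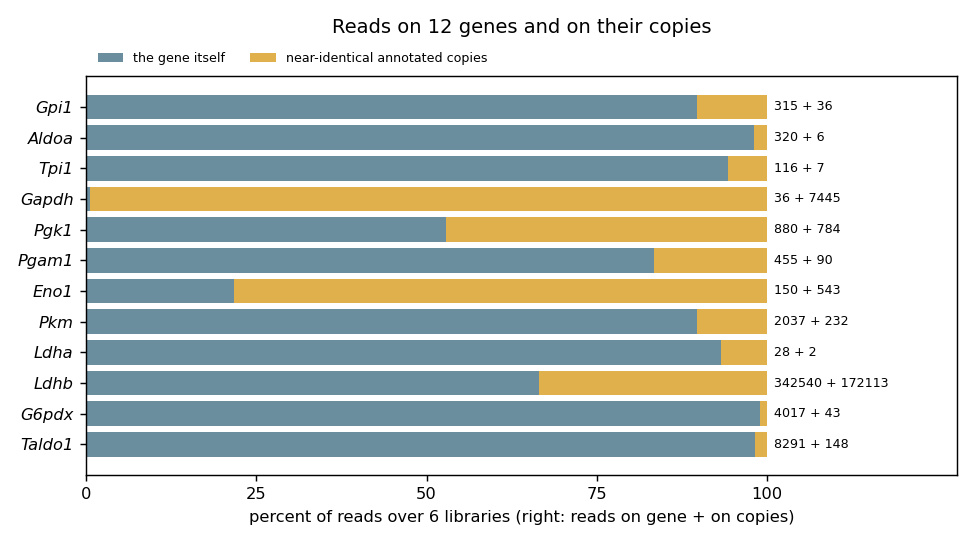
Percent of reads over all 6 libraries on the gene itself and on its near-identical annotated copies, for the 12 genes that have such copies; the counts of reads on the gene and on its copies stand at the right. Copies hold 99.5% of the reads for Gapdh, 78.4% for Eno1, 47.1% for Pgk1 and 33.4% for Ldhb.

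Phosphoglycerate kinase makes the first ATP of glycolysis. Pgk1, its X-linked form, had 155, 116 and 170 reads in control and 139, 148 and 152 in metformin libraries, at 15.7 ± 2.29 and 14.4 ± 1.17 CPM (log2 fold change -0.12, SE 0.192). Its copies held 784 further reads, of which 744 lay on the processed pseudogene Pgk1-rs7, identical to Pgk1 over 1255 bases. Pgam1, phosphoglycerate mutase, had 88, 66 and 83 reads in control and 79, 69 and 70 in metformin libraries. At 8.43 ± 0.904 CPM in control and 7.15 ± 0.368 CPM with metformin, its log2 fold change was -0.24 (SE 0.209; edgeR quasi-likelihood test, unadjusted p = 0.279). Copies held 16.5% of the reads of its family. Per length the mean FPKM was 1113 for Bpgm and 2.78 for Pgam1.

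Enolase and pyruvate kinase finish the chain. Eno1, the widespread enolase, had 31, 24 and 20 reads in control and 30, 24 and 21 in metformin libraries (log2 fold change -0.12, SE 0.302), and 543 reads lay on its copies. Most of these fell on the processed pseudogene Gm4735, 99.6% identical, with 325 reads, and on Eno1b, annotated as protein-coding and 99.5% identical, with 177. Summed with the copies, Eno1 had a log2 fold change of 0.01 (SE 0.241), so its direction turned. Eno3, the muscle enolase, had 0 reads in all 6 libraries, which, at the floor of 3 reads and the summed length of its distinct exons, allows up to 0.0902 to 0.111 FPKM per library. Pkm, pyruvate kinase, had 393, 321 and 263 reads in control and 404, 406 and 250 in metformin libraries, again lowest in the number 3 library of both groups. It stood at 34.9 ± 7.17 CPM in control and 34.6 ± 7.87 CPM with metformin (log2 fold change -0.01, SE 0.215), and 10.2% of the reads of its family lay on copies.

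Monocarboxylate transporters move pyruvate and lactate across the membrane. Slc16a1 (MCT1), the widespread form, had 150, 151 and 143 reads in control and 182, 169 and 122 in metformin libraries, at 15.9 ± 1.15 and 15.5 ± 2.61 CPM (log2 fold change -0.04, SE 0.195). It made up 97.0% to 99.0% of the summed FPKM of the 3 transporters listed. Slc16a7 (MCT2), a carrier of high affinity for pyruvate, had 13, 15 and 9 reads in control and 6, 6 and 12 in metformin libraries. The metformin library with 12 reads lay within the control range. At 1.33 ± 0.384 CPM in control and 0.796 ± 0.374 CPM with metformin, it had the lowest log2 fold change of the 24 tested genes, -0.74 (SE 0.464), and also their lowest unadjusted p, 0.140, with an adjusted p of 0.9996 in edgeR's quasi-likelihood test. Slc16a3 (MCT4), the lactate exporter of glycolytic cells, had 1 read in all.

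Pyruvate dehydrogenase kinases phosphorylate and switch off pyruvate dehydrogenase, which passes pyruvate into mitochondrial oxidation. Pdk3 had 657, 401 and 540 reads in control and 653, 502 and 652 in metformin libraries, and the number 2 library was the lowest of both groups. It stood at 56.7 ± 11.9 CPM in control and 59.4 ± 9.02 CPM with metformin (log2 fold change 0.07, SE 0.188). Pdk1, a form that hypoxia induces, had 68, 115 and 120 reads in control and 86, 141 and 125 in metformin libraries (log2 fold change 0.10, SE 0.276). Per length Pdk3 made up 92.8% to 97.3% of the sum of both.

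The oxidative arm of the pentose phosphate pathway yields NADPH, which keeps glutathione reduced. G6pdx, its entry and main control point, had 620, 697 and 596 reads in control and 827, 716 and 561 in metformin libraries. In CPM, control library 2 and metformin library 1 stood level at the top, at 78.8 and 78.7, and metformin library 3 was the lowest at 57.4. Its level was 68.5 ± 9.09 CPM in control and 68.8 ± 10.7 CPM with metformin (log2 fold change 0.01, SE 0.168). The enzymes after it were far lower, with a mean FPKM of 17.9 for G6pdx, 0.167 for Pgls and 0.233 for Pgd. Pgls, the lactonase, had 1, 13 and 7 reads in control and 12, 13 and 7 in metformin libraries (log2 fold change 0.47, SE 0.632), and without control library 1, which held 1 read, its log2 fold change was -0.06. On the same strand, 20.6% of the Pgls exons overlap Fam129c, which had 61 reads. Pgd, which makes the second NADPH and releases carbon dioxide, had 6, 15 and 18 reads in control and 26, 15 and 21 in metformin libraries. Its 1.40 ± 0.667 CPM in control and 2.03 ± 0.510 CPM with metformin gave the highest log2 fold change of the 24, 0.54 (SE 0.425; edgeR quasi-likelihood test, unadjusted p = 0.228).

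The non-oxidative arm returns pentoses to glycolysis or makes ribose for nucleotides. Rpia, which makes ribose-5-phosphate, had 223, 249 and 283 reads in control and 322, 256 and 252 in metformin libraries, at 26.9 ± 3.08 and 27.2 ± 3.00 CPM (log2 fold change 0.01, SE 0.173). Rpe, the epimerase, had 130, 224 and 143 reads in control and 144, 195 and 201 in metformin libraries (log2 fold change -0.01, SE 0.259). The protocol does not keep strand, and 17.9% of the Rpe exons overlap Kansl1l on the opposite strand, which had 2510 reads. Tkt, transketolase, had 74, 72 and 58 reads in control and 93, 56 and 44 in metformin libraries, at 7.30 ± 1.15 and 6.28 ± 2.28 CPM (log2 fold change -0.21, SE 0.281). Taldo1, transaldolase (chr7:141392199-141402968, plus strand), had 1295, 1146 and 1584 reads in control and 1298, 1400 and 1568 in metformin libraries, with the number 3 library the highest of both groups. It stood at 143 ± 18.1 CPM in control and 140.5 ± 18.7 CPM with metformin (log2 fold change -0.03, SE 0.152). Per length the order in this pathway was Taldo1, G6pdx, Rpe, Rpia, Tkt, Pgd and Pgls, by mean FPKM of 48.1, 17.9, 4.48, 4.43, 0.713, 0.233 and 0.167. The values of the neighbours Rpe and Rpia overlapped across the 6 libraries, and so did those of Pgd and Pgls.

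Across the 24 tested genes, 0 rose and 0 fell by edgeR's quasi-likelihood test, where 3 of all 12793 genes rose (0.0235%) and 2 fell (0.0156%). DESeq2, which called 8 of 26005 genes (0.0308%), and limma-voom, which called 4 of 12793 (0.0313%), also called 0 of them. At an unadjusted p under 0.05 the count was 0 of 24, against 192 or 1.5% of all genes tested by edgeR. The fitted log2 fold change was above 0 for 8 and below 0 for 16 of the 24, and 47.5% of all tested genes were below 0. The median was -0.03, against 0.01 over all genes tested, and the range was -0.74 to 0.54. Standard errors ran from 0.152 for Taldo1 to 0.632 for Pgls with a median of 0.261.

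**Figure D5:**
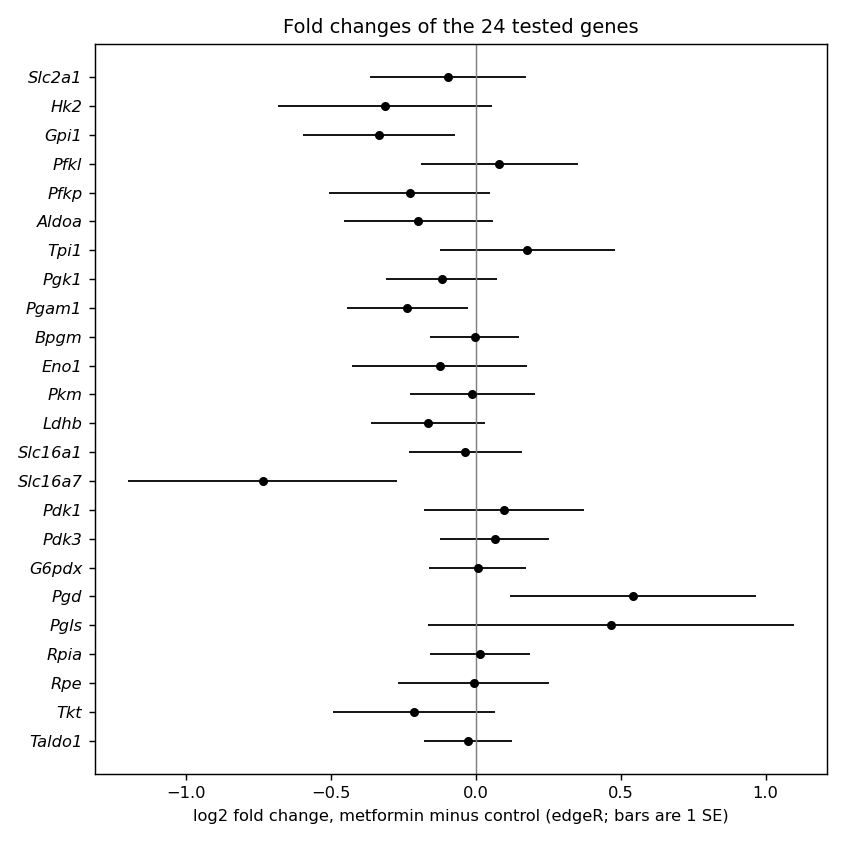
Log2 fold change of metformin against control for the 24 tested genes, ordered by role, from edgeR's quasi-likelihood fit on 3 against 3 libraries; bars are 1 SE either side. Estimates lie between -0.74 (Slc16a7) and 0.54 (Pgd), and the shortest bars are those of Taldo1 and Bpgm, with an SE of 0.152 and 0.154.

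A further 59 genes of the same pathways were read from the same fit: other isozymes, regulators, transporter partners and transcription factors. Of these, 46 had reads, 31 were tested and 0 were called higher or lower, against 0.0391% of all tested genes, with 0 at an unadjusted p under 0.05, against 1.5%, in edgeR's quasi-likelihood test. DESeq2 and limma-voom also called 0. Their median log2 fold change was -0.06 and the range -0.53 to 0.44. The most abundant per length was Hif1a, the hypoxia-responsive activator of many glycolytic genes, at a mean of 59.9 FPKM. It stood at 421 ± 31.1 CPM in control and 415 ± 52.0 CPM with metformin (log2 fold change -0.02, SE 0.138). Next came Pdp1, a phosphatase that switches pyruvate dehydrogenase back on, at 13.2 FPKM (log2 fold change -0.07, SE 0.132) and Bsg (basigin), which carries Slc16a1 to the membrane, at 10.4 FPKM (0.03, SE 0.164). Adpgk, an ADP-dependent glucokinase, had a mean of 6.20 FPKM (-0.07, SE 0.143) and Fbp1, the fructose bisphosphatase of gluconeogenesis, 6.15 FPKM (-0.04, SE 0.203).

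Pdp2, the second of these phosphatases, had the smallest unadjusted p among the genes fitted lower. It had 52, 34 and 49 reads in control and 30, 38 and 36 in metformin libraries and was the only one of the 31 whose groups did not overlap in CPM, 3.23% of them against 5.63% of all tested genes. At 4.79 ± 0.845 CPM in control and 3.42 ± 0.494 CPM with metformin its log2 fold change was -0.49 (SE 0.263; edgeR quasi-likelihood test, unadjusted p = 0.0898 and adjusted p = 0.9996). Slc2a10, a glucose transporter of internal membranes, followed at -0.50 (SE 0.298; edgeR quasi-likelihood test, unadjusted p = 0.117). Among the genes fitted higher, Slc2a12 (GLUT12), another transporter, had a log2 fold change of 0.38 (SE 0.271; edgeR quasi-likelihood test, unadjusted p = 0.185) and Emb (embigin), a partner of monocarboxylate transporters, 0.25 (SE 0.212; edgeR quasi-likelihood test, unadjusted p = 0.254).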

How the data were processed

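The authors deposited a table with raw read counts and FPKM values for each Ensembl gene in each library, per the file headers. Per the labels' protocols, libraries came from the SMART-Seq HT kit. It primes on poly(A) tails and keeps neither strand nor molecular identifiers. TopHat2 2.0.6, CASAVA 1.8 and the mm10 build (GRCm38) appear in the submitters' processing notes. The counting program, and how it treated multiple matches, is not given in the sources used here. A poly(A)-primed library also responds to a change in tail length.

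The members and gene lists were chosen with earlier results of these data known. Columns were matched to samples by their titles, symbols and coordinates came from GENCODE M21, and of the 33 identifiers behind the 32 symbols the second one of Aldoa had 0 reads. Counts were tested as deposited with edgeR 4.0.16 (R 4.3.3; TMM scaling, filterByExpr with a minimum count of 10, robust quasi-likelihood fit, group as the only term), with Benjamini-Hochberg adjustment over all 12793 genes tested and a threshold of 0.05. CPM values use the TMM-scaled library sizes, and an SE is the fold change divided by the root of the F statistic. DESeq2 1.42.0 and limma-voom (limma 3.58.1) were alternatives. The scripts were tested on simulated counts. FPKM values entered no test. Copies were found with blastn 2.17.0 between GENCODE transcripts, at 90% identity over 300 bases and 50% of the copy; these limits were set after the data were seen, as were the printed sequences. Per-library values are given for the member with the highest mean FPKM of each step, for the 3 members with the smallest p in each direction, and for other members where a step has several. Of the other pathway genes, those named are the 2 with the smallest p in each direction and the 5 with the highest mean FPKM.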

Additional observations from a re-analysis of the deposited data

How the results depend on the processing

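The counts of called pathway genes stayed at 0, for the 32 genes and for the 59 others, under every alternative run. The lowest adjusted p of a named gene in any of them was 0.9971. The count of all genes called was 5, and 4 to 7 under 3 other scalings, 2 other filters, limma-voom, a non-robust fit, the replicate block, summed copies and a threshold of 0.10. DESeq2 called 8. Leaving out 1 library gave 5 to 12 (8 without control 3, 9 without control 1 or metformin 1, 11 without metformin 2, 12 without metformin 3). The median log2 fold change of the 24 tested genes stayed between -0.09 and -0.02.

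The replicate block called 7 genes and 0 members and moved Rpe to 0.022. Deviations of libraries with the same number correlated at 0.144, 0.044 and 0.2 over genes. Each library correlated best with its own number, but control 2 hardly so, at 0.044 against 0.032 with metformin 1. This is a hint from the data and not from the design.

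Of the 24 tested genes, 13 changed sign in at least 1 alternative, the largest reported fold change among them being the 0.47 of Pgls. Rpe was 0.028 with limma-voom, G6pdx -0.001 with no filter and Eno1 0.011 with copies summed. Over the fits without 1 library each, the ranges were -0.31 to 0.035 for Slc2a1, -0.13 to 0.23 for Pfkl, -0.13 to 0.10 for Bpgm, -0.28 to 0.039 for Eno1, -0.16 to 0.17 for Pkm, -0.13 to 0.10 for Slc16a1, -0.13 to 0.30 for Pdk1, -0.074 to 0.23 for Pdk3, -0.10 to 0.12 for G6pdx, -0.058 to 1.31 for Pgls, -0.082 to 0.077 for Rpia, -0.17 to 0.32 for Rpe, -0.13 to 0.081 for Taldo1, -0.045 to 0.14 for Bsg, -0.16 to 0.079 for Fbp1 and -0.12 to 0.062 for Hif1a. The other 11 kept their sign, and the same fits gave -0.39 to -0.02 for Ldhb, -0.63 to -0.07 for Hk2, -0.52 to -0.16 for Gpi1, -0.45 to -0.06 for Pfkp, -0.41 to -0.05 for Aldoa, -0.23 to -0.03 for Pgk1, -0.32 to -0.17 for Pgam1, -0.54 to -0.02 for Tkt, -1.18 to -0.53 for Slc16a7, 0.15 to 0.20 for Tpi1 and 0.19 to 0.81 for Pgd. The cause was not tested. The 8 untested genes had 0 to 41 reads of their own in all.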
